A study of Homo sapiens with 8 samples.

Results

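The genes described here are 59 genes of the cell cycle and of DNA replication: E2F factors and pocket proteins, cyclins and their kinases, origin licensing and fork proteins, enzymes of nucleotide supply, and mitotic regulators. They were taken from a list of symbols that was chosen with earlier results of these data known. A region of a deposited table was assigned to a gene when it overlapped the RefSeq span of that gene on GRCh38, extended by 3000 bp on both sides. By that rule the 59 genes held 87 of 35154 listed RBBP4 regions and 16 of 20496 listed P300 regions. All 59 are among 20037 protein-coding genes with a span in the RefSeq gene table.

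The cells were NCI-H69, a line established from human small cell lung cancer. Chromatin was taken 48 h after transfection with siRNA against CSNK2B, which encodes the regulatory beta subunit of protein kinase CK2, or with non-targeting siRNA. RBBP4 and P300 were each immunoprecipitated from both arms, with 1 library per antibody and arm, and the input libraries that complete the 8 samples are not used here. The labels give the siRNA as the only difference between the arms, and no measure of CSNK2B itself is used here.

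RBBP4 is a histone-binding protein shared by several chromatin complexes, among them NuRD, PRC2, the replication-coupled assembly factor CAF-1 and the MuvB core of the DREAM complex. DREAM joins MuvB to a p107 or p130 pocket protein and an E2F4 or E2F5 factor and holds cell cycle genes silent in resting cells, and MuvB later pairs with MYBL2 and FOXM1 to activate genes of G2 and mitosis. E2F sites mark mostly genes of S phase and the cell cycle genes homology region, CHR, mostly genes of mitosis, while RB1, the pocket protein that restrains activating E2F factors, is commonly inactivated in small cell lung cancer. P300 is a histone acetyltransferase best known at enhancers.

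Each deposited region carries a density in RPKM for the knockdown and the control library, from which whole reads were recovered. The listed regions are a selection: the largest deposited p-value was 0.0493 in each authors' deposited table, so a gene without a region may be unbound, or bound alike in both arms, or covered too thinly. The arm in which a peak had been called, given by the region's name, was the higher arm in 35151 of 35154 RBBP4 regions and in all 20496 P300 regions. The densities rested on 1207945 knockdown and 833181 control reads for RBBP4 and on 946392 and 1092789 for P300, the totals implied by the worth of 1 read, and a listed region held a median of 14 and 6 reads for RBBP4. Because each arm is 1 library, the knockdown could not be tested, and folds are given with an exact 95% interval that covers counting error only. A region is called here when its adjusted p is under 0.05 in the authors' deposited table, a value that compares libraries rather than conditions.

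Of the neuroendocrine markers of this cancer that are reported here, NCAM1 held 4 RBBP4 regions and 1 P300 region, and INSM1, NEUROD1, SYP and CHGA held none for either antibody. A list of changed regions does not check the identity of the cells.

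RBBP4 density was higher after CSNK2B knockdown at most of these genes, and mainly at their starts. A higher called region lay at 49 of 59 genes (83.1%), against 38.3% of all protein-coding genes. Genes with a lower called region were 4 of 59 (6.78%), against 5.60% overall. Within 1000 bp of a start a higher called region was present for 36 of 49 genes with a start in the RefSeq promoter table (73.5%), where 28.6% of all 15843 such genes had one, and a lower called region for 0 of 49, against 0.0821%. For these genes a start is any start in that table or the 5′ end of the gene span, and the latter gave the distance for regions of RB1, CCND3 and AURKB. The median span was 20728 bp for the 59 genes and 24115 bp for all, and the part of gene length in these counts was not tested. In the region nearest the start, the median density was 35.0 RPKM after knockdown and 8.45 RPKM in the control over 53 genes, beside 30.6 and 8.57 RPKM over all 10344 genes with a listed region.

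**Figure D1:**
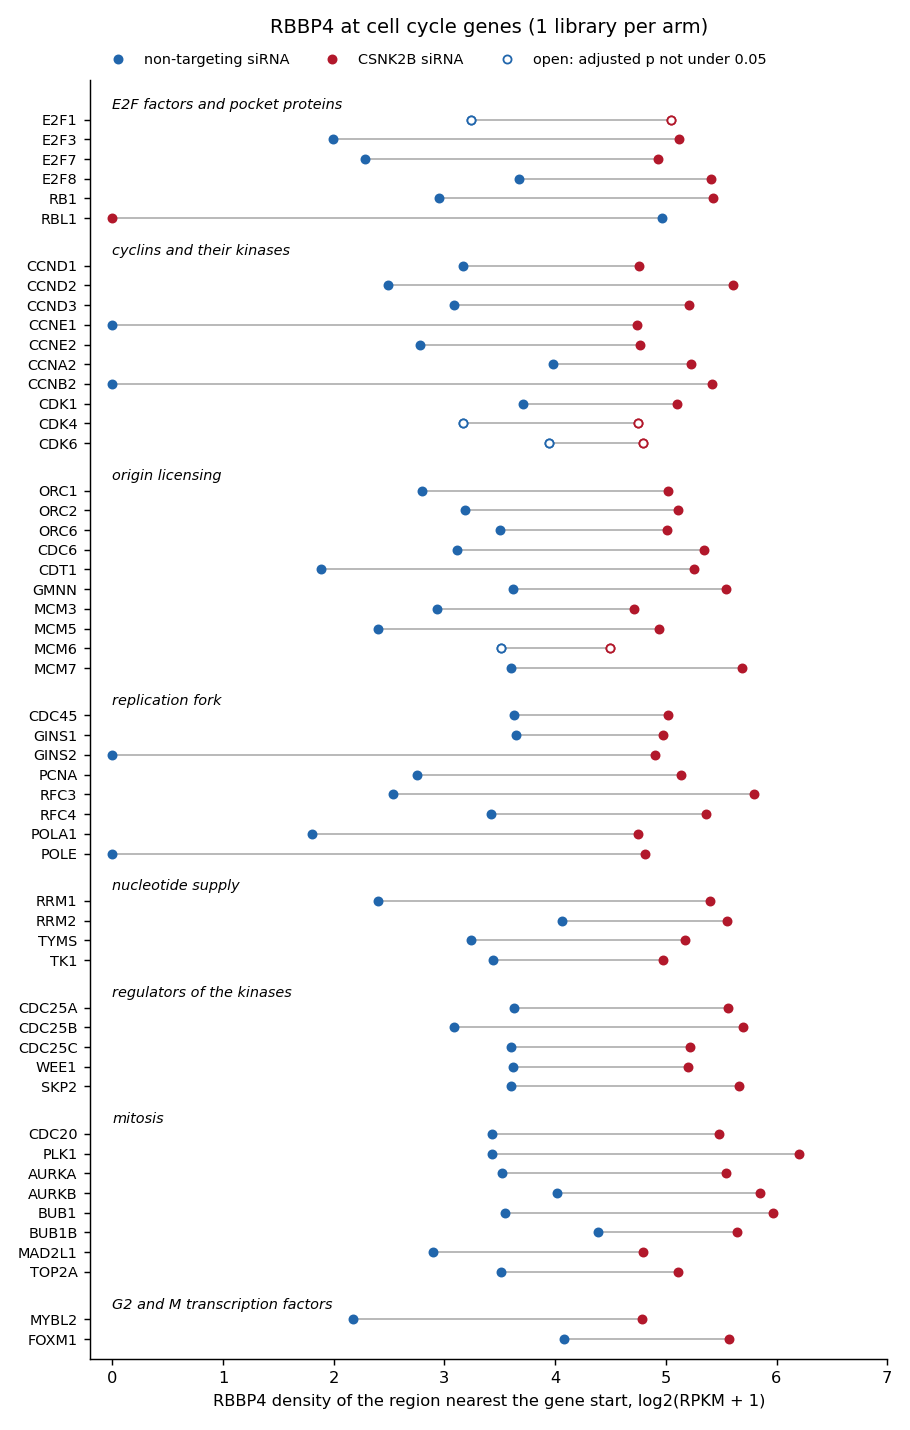
RBBP4 density of the listed region nearest each gene's start, as log2(RPKM + 1), in the control library (blue) and the knockdown library (red), 1 library each, for the 53 cell cycle genes with a region. Open symbols mark regions with an adjusted p of 0.05 or more, and RBL1 alone has its red point to the left of its blue point.

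On the log2 scale of RPKM plus 1, the median ratio of knockdown over control was 1.94 over the 53 genes and 1.81 over all 10344, and 52 of 53 ratios (98.1%) lay above 0, against 86.0% overall. Among ratios above 0 the median was 1.97 for the cell cycle genes, with quartiles of 1.58 and 2.62, and 1.96 for all genes, with quartiles of 1.54 and 2.54. Since only regions with a p under 0.05 are listed, that selection bears on the sizes in both sets. Of the 77 higher regions at the cell cycle genes 66 had an interval above 1, and all 10 lower regions had one below 1. The same selection bears on these counts, and no share over all listed regions was computed for them.

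The regions sat on the starts. Of the 52 higher called regions of genes with a start in the table, 34 covered a start, at 33 genes, and their centres lay a median of 90.5 bp from it, 17 before and 17 after, within -300 to 396 bp. Only 12 lay over 1000 bp from a start. Over all higher regions, called or not, 61.0% of the 77 lay within 1000 bp of a start of some gene (exact interval 49.2 to 72.0%), beside 22.3% of the 24180 listed. None of the 10 lower regions did, which allows a share of up to 30.8% by the exact interval, beside 0.428% of the 10974 lower regions listed. These intervals treat regions as independent, though some genes hold several. E2F8, CCND1, CCND2, CCNE2, CDK2, MCM4, MCM5, WEE1, AURKA and FOXM1 had no start in the table, and 8 of them had a higher called region within 1000 bp of an end of the gene span. The start or span end was therefore marked for 44 of the 49 genes with a higher called region, 36 by a start and 8 by either end of a span. No share over all genes was computed for this joint count. GINS2, MYBL2, CDC25B, CDK6 and POLA1 had called higher regions only farther away.

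**Figure D2:**
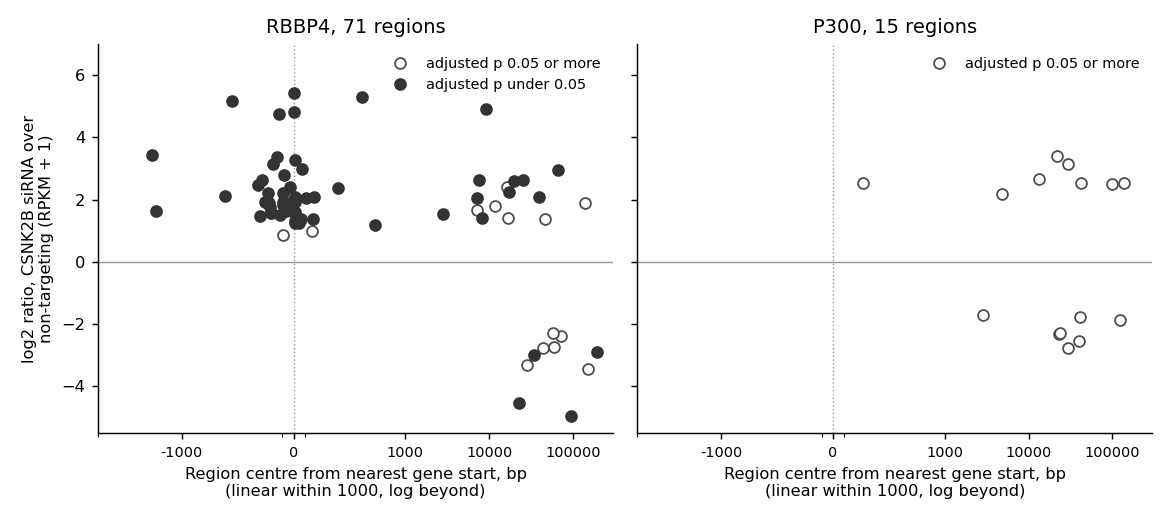
Each point is a listed region of a cell cycle gene with a known start, 71 for RBBP4 and 15 for P300, placed by the distance of its centre from the nearest start in bp (linear within 1000 bp, logarithmic beyond) and by the log2 ratio of knockdown over control. Higher RBBP4 regions cluster at 0 bp, all 10 lower RBBP4 regions lie at least 22088 bp from a start, and P300 regions of both directions lie mostly away from starts.

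Neighbouring genes share some of these starts. Regions at the starts of CDC25C, E2F3, MCM7, ORC1, ORC6, PCNA, POLE, SKP2 and TK1 also lay within 1000 bp of the start of another gene, such as AP4M1 beside MCM7, PRPF38A beside ORC1 and AFMID beside TK1. For these 9 genes the shared region cannot be assigned to 1 gene of the pair. PCNA and CDC25C each also held a called higher region over another of their starts, without another gene's start within 1000 bp. The 9 genes were counted only among genes with a start in the table. Outside that count, the AURKA region also covered the start of CSTF1 and cannot be assigned either. Called regions of CDC45, FOXM1, CCNE2 and CCND3, among others, overlapped the spans of UFD1, RHNO1, NDUFAF6 and TAF8.

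The promoters below are those of the gene in each role with the most reads in a called RBBP4 region covering the start of its printed window. AURKB had more reads than PLK1, but its region covers the 5′ end of the gene span and no start in the promoter table. They are shown because each window lies inside the higher region. Density is given per region only, so where in the region the reads fall is not known. Each is the 250 bases before the start, from the RefSeq promoter table of GRCh38.p14, written 5′ to 3′ on the strand of the gene. Capitals mark matches on either strand to motifs of 3 kinds. The E2F forms searched were TTCCCGC, the related form written TTGGCGC, and the further form written TTCGCGC. The box CCAAT was searched as such, and CHR as the form TTTGAA or else as the form TTTAAA. The windows are E2F3 at chr6:20401629-20401878 on the plus strand, CDK1 at chr10:60778081-60778330 on the plus strand, MCM7 at chr7:100101398-100101647 on the minus strand, CDC45 at chr22:19479216-19479465 on the plus strand, RRM2 at chr2:10122318-10122567 on the plus strand, CDC25A at chr3:48188418-48188667 on the minus strand, and PLK1 at chr16:23678639-23678888 on the plus strand.
E2F3: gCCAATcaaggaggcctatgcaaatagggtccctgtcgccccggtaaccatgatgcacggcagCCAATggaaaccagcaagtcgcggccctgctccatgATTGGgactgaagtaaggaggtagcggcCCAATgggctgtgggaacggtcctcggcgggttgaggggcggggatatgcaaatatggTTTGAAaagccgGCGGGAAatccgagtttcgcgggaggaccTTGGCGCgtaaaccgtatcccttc
CDK1: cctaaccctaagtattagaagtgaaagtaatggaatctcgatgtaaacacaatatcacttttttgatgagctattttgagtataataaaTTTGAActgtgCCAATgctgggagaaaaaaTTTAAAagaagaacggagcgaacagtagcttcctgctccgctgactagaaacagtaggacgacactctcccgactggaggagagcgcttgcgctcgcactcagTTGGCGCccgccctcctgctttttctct
MCM7: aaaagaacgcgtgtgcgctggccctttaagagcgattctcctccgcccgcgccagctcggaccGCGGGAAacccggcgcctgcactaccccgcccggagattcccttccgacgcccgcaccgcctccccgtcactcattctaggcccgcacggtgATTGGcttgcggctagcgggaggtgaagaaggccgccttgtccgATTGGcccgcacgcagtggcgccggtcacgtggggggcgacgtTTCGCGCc
CDC45: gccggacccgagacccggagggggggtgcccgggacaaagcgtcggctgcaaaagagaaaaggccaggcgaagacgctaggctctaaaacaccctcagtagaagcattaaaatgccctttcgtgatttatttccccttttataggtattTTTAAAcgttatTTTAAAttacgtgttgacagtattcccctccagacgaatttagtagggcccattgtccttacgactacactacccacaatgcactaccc
RRM2: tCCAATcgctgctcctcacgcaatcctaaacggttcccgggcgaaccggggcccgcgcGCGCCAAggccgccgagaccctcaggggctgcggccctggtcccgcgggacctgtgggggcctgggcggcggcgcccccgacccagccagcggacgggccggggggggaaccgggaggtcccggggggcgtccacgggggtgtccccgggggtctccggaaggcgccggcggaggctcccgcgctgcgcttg
CDC25A: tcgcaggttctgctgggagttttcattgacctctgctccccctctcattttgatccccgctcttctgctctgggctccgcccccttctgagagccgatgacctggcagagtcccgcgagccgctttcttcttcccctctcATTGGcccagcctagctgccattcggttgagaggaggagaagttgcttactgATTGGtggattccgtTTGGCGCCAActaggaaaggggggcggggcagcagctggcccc
PLK1: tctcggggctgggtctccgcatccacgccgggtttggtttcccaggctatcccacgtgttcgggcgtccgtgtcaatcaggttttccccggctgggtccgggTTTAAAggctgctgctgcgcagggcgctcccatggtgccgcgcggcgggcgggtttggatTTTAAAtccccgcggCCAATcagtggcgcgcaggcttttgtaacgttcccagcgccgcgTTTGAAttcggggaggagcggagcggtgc

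The 7 windows differed in what they held. E2F3 carried CCAAT matches, a CHR match 65 bases before the start and E2F matches 53 and 24 bases before it. The S phase genes MCM7, RRM2 and CDC25A carried E2F and CCAAT matches without a CHR match, and in CDC25A the E2F matches 43 and 40 bases before the start overlapped each other on opposite strands. PLK1, a mitotic kinase, carried CHR matches 148, 88 and 29 bases before the start with a CCAAT match at 73 and no E2F match. CDK1 held all of these kinds, with CHR matches at 161 and 131 bases and an E2F match at 28. CDC45 held only CHR matches, at 101 and 89 bases.

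Over the 49 genes with a promoter in the table, E2F forms were present in 51.0% of the windows, beside 12.5% of all 15843 promoters of the same length. CCAAT was present in 59.2%, beside 34.5%, and a CHR form in 24.5%, beside 18.2%. Within the 49 genes the counts are small. E2F matches were in 17 of 36 genes with a higher called region at the start and in 8 of 13 without, CCAAT in 23 of 36 and 6 of 13, and CHR in 11 of 36 and 1 of 13. Over all 4538 genes with such a region, E2F forms were in 16.8%, CCAAT in 36.0% and CHR in 15.3%. The median GC content of the windows was 62.8% for the cell cycle genes and 62.0% for all.

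**Figure D3:**
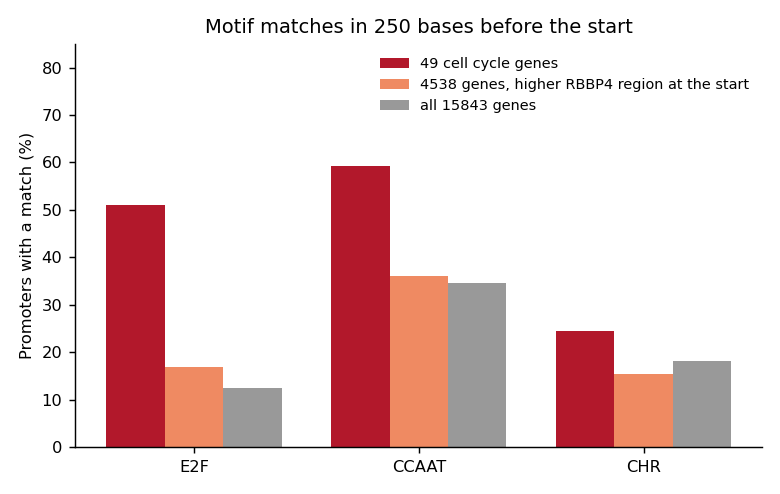
Share of promoters (%) with a match to E2F forms, CCAAT or CHR forms in the 250 bases before the start, for the 49 cell cycle genes (red), the 4538 genes with a higher called RBBP4 region at the start (orange) and all 15843 genes (grey). The red bars are 51.0, 59.2 and 24.5%, and the orange and grey bars lie close together.

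Shares by GC content ran differently for the cell cycle genes and for all promoters. From the lowest to the highest quartile of GC content, 16.7%, 29.7%, 35.6% and 32.1% of all promoters had a higher called region within 1000 bp. The cell cycle genes had one in 5 of 5, 14 of 17, 9 of 12 and 8 of 15, above the overall share in each quartile. Their share fell from each quartile to the next, on few genes. The part of GC content in the result was not tested beyond these values.

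Among E2F factors and pocket proteins, 4 of 7 genes had a higher called RBBP4 region: E2F3, E2F7, E2F8 and RB1. E2F3, an activating E2F, had 33 knockdown and 2 control reads at its start (chr6:20401287-20402095), 33.8 against 2.97 RPKM, a density 11.4-fold higher (2.91 to 97.9); the authors' deposited table gave it an adjusted p of 9.58e-06. E2F8, an atypical repressive E2F, had 41 and 8 reads (3.53-fold, 1.64 to 8.73). At E2F7, its relative, 11 reads stood against 1 (7.59-fold, 1.10 to 327), a region 129 bp from the start that rests on few reads. At RB1 a region 143 bp from the start had 18 and 2 reads (6.21-fold, 1.49 to 55.2).

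RBL1, which encodes p107, went the other way. Its only listed region (chr20:37002929-37003325), 92672 bp from the start, had 0 knockdown and 10 control reads. It was 4.83-fold lower with a floor of 3 reads in place of 0, with an exact lower limit of 3.25. The authors' deposited table gave this region an adjusted p of 0.0180. RB1 also had lower regions 27800, 43242 and 70477 bp from its start, with 1 against 9, 2 against 12 and 3 against 12 reads, none of them called. E2F1, an activating E2F, had 11 and 2 reads in a region that was not called and that lay 728 bp beyond the gene and 38 bp from the start of NECAB3. E2F2 had no listed region.

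Cyclins and their kinases were called higher at 9 of 12 genes. CDK1, the kinase of mitotic entry, had 52 and 13 reads over its start (2.76-fold, 1.48 to 5.52); the authors' deposited table gave it an adjusted p of 2.89e-04. CCNE2, an E-type cyclin of S phase entry, had 52 and 8 reads (4.48-fold, 2.12 to 10.9). The D-type cyclins, partners of CDK4 and CDK6 in G1, were all called. CCND1 had 47 and 10 reads at an end of its span (3.24-fold, 1.62 to 7.20). CCND2 held 5 called regions, from 215 to 4402 bp from an end of the span, among them one with 43 and 4 reads (7.41-fold, 2.69 to 28.4). CCND3 had 14 and 2 reads 449 bp from its start (4.83-fold, 1.11 to 43.8).

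Cyclins of S phase and G2 were called at their starts too. CCNA2 had 25 and 7 reads (2.46-fold, 1.04 to 6.75). CCNB2, a B-type cyclin, had 16 knockdown reads and 0 control reads at its start, 3.68-fold higher with the floor and with an exact lower limit of 2.66. CCNE1 had 8 and 0, 1.84-fold higher with the floor and with a lower limit of 1.18. CDK4 had 14 and 3 reads at its start, which was not called (3.22-fold, 0.898 to 17.5), and CCNB1 and CDK2 had no listed region.

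CDK6 was the member with the most regions, 6, and they went both ways. A region 38536 bp from the start was called higher with 33 and 5 reads (4.55-fold, 1.77 to 14.9), and one covering the start was not called, with 27 and 10 (1.86-fold, 0.874 to 4.31). A region 189398 bp from the start (chr7:92644060-92644561) was called lower, with 2 against 13 reads, 9.42-fold lower (2.13 to 86.0). Lower regions 149427 and 58688 bp from the start, with 1 against 10 and 2 against 11 reads, were not called. Nor was a higher region 137982 bp from the start, with 12 and 2 reads.

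Origin licensing, the loading of the MCM helicase onto origins in G1, was called higher at 9 of 12 genes. MCM7, an MCM helicase subunit, had 112 and 17 reads (chr7:100100299-100102134), 50.5 against 11.1 RPKM, a density 4.54-fold higher (2.71 to 8.08); the authors' deposited table gave it an adjusted p of 2.50e-10. No other start of a licensing gene held as many reads. MCM5, another subunit, had 30 and 3 reads at an end of its span (6.90-fold, 2.15 to 35.3). GMNN, which encodes the licensing inhibitor geminin, had 35 and 6 at its start (4.02-fold, 1.67 to 11.7). CDT1, the loading factor that geminin blocks, had 20 and 1 at its start (13.8-fold, 2.21 to 572).

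Subunits of the origin recognition complex were called at their starts as well. ORC2 had 24 and 4 reads (4.14-fold, 1.42 to 16.4), ORC6 22 and 5, and ORC1 23 and 3, while the helicase subunit MCM3 had 22 and 4. ORC1 also held a lower called region 22088 bp from its start (chr1:52381688-52382335), with 0 knockdown and 12 control reads. That region was 5.80-fold lower with the floor, with an exact lower limit of 4.03. CDC6, another loading factor, had 30 and 4 reads at its start (5.17-fold, 1.82 to 20.2). The deepest region assigned to it, with 122 and 13 reads, lay 18963 bp from that start and 1084 bp from the start of its neighbour RARA. MCM6 had 24 and 8 reads over its start, not called (2.07-fold, 0.899 to 5.33), and MCM2 and MCM4 had no listed region.

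Fork proteins were called higher at 8 of 9 genes, all but MCM10, which had no listed region. CDC45, part of the CMG helicase, had 48 and 12 reads over its start (2.76-fold, 1.44 to 5.71). PCNA, the sliding clamp, had 28 and 6 reads at the start next to CDS2 (3.22-fold, 1.31 to 9.51) and 43 and 5 over another PCNA start in the table (5.93-fold, 2.35 to 19.2). RFC3, a clamp loader subunit, had 33 and 2 reads at its start (11.4-fold, 2.91 to 97.9); the authors' deposited table gave it an adjusted p of 9.58e-06. Its second region, 57433 bp from the start, was lower, with 4 against 15 reads, and was not called.

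Other fork genes rested on fewer reads. GINS1, a CMG subunit, had 23 and 6 reads (2.64-fold, 1.05 to 7.94), and RFC4, a clamp loader subunit, 18 and 3 (4.14-fold, 1.21 to 21.9). POLE, the leading strand polymerase, had 12 knockdown reads and 0 control reads over its start, 2.76-fold higher with the floor and with an exact lower limit of 1.92. POLA1, the catalytic subunit of the priming polymerase, had its called region 66308 bp from the start, with 15 and 1 reads, and GINS2 its region 9056 bp away, with 9 and 0.

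All 4 genes of nucleotide supply were called higher at their starts. RRM2, the regulated subunit of ribonucleotide reductase, had 93 and 22 reads (chr2:10121428-10123108), a density 2.92-fold higher (1.82 to 4.88); the authors' deposited table gave it an adjusted p of 2.85e-06. TYMS, thymidylate synthase, had 45 and 13 reads 225 bp from its start (2.39-fold, 1.27 to 4.82), and TK1, thymidine kinase, had 27 and 6 (3.10-fold, 1.26 to 9.19). RRM1, the large subunit of the reductase, had 28 and 2 reads at the start (9.66-fold, 2.44 to 83.7). It also had a lower called region 33500 bp from the start (chr11:4128185-4128686), with 2 against 14 reads, 10.1-fold lower (2.33 to 92.0).

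Regulators of the kinases were called higher at 5 of 5 genes. CDC25A, a phosphatase that activates CDK2 and CDK1, had 35 and 6 reads at its start (4.02-fold, 1.67 to 11.7). CDC25C, the phosphatase of mitotic entry, had 25 knockdown and 0 control reads 348 bp from its start (chr5:138337458-138337993), 5.75-fold higher with the floor and with an exact lower limit of 4.34. A second called CDC25C region, over another start in the table, had 33 and 7. WEE1, the kinase that opposes them, had 46 and 10 reads (3.17-fold, 1.58 to 7.05), and SKP2, a ubiquitin ligase subunit that targets p27, had 26 and 4 (4.48-fold, 1.56 to 17.7). At CDC25B the 99 and 10 reads (6.83-fold, 3.56 to 14.7) lay 663 bp past the gene and 6730 bp from its start.

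Mitotic genes were called higher at 8 of 8, and 7 of 7 with a start in the table were called there. PLK1, the kinase of mitotic entry and spindle assembly, had 72.8 RPKM after knockdown against 9.77 in the control, the highest knockdown density over the 53 genes in the region nearest the start. Its region (chr16:23678494-23679107) had 54 and 5 reads, 7.45-fold higher (3.0 to 23.9); the authors' deposited table gave it an adjusted p of 9.07e-08. BUB1, a spindle checkpoint kinase, had 50 and 6 reads (5.75-fold, 2.46 to 16.4). AURKB, the kinase of the chromosomal passenger complex, had 54 and 10 (3.72-fold, 1.88 to 8.20). CDC20, an activator of the anaphase-promoting complex, had 45 and 7 (4.43-fold, 1.98 to 11.7).

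The remaining mitotic genes were alike. AURKA, a spindle pole kinase, had 38 and 6 reads in a region at an end of its span (4.37-fold, 1.83 to 12.6). BUB1B, a checkpoint protein, had 32 and 9 (2.45-fold, 1.14 to 5.84). MAD2L1, another, had 30 and 5, and TOP2A, the topoisomerase of chromosome segregation, had 28 and 6. The transcription factors of G2 and mitosis were also called higher: FOXM1 had 34 and 8 reads at an end of its span (2.93-fold, 1.33 to 7.33), and MYBL2 had 11 and 1 reads in a region 24854 bp from its start (7.59-fold, 1.10 to 327).

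**Figure D4:**
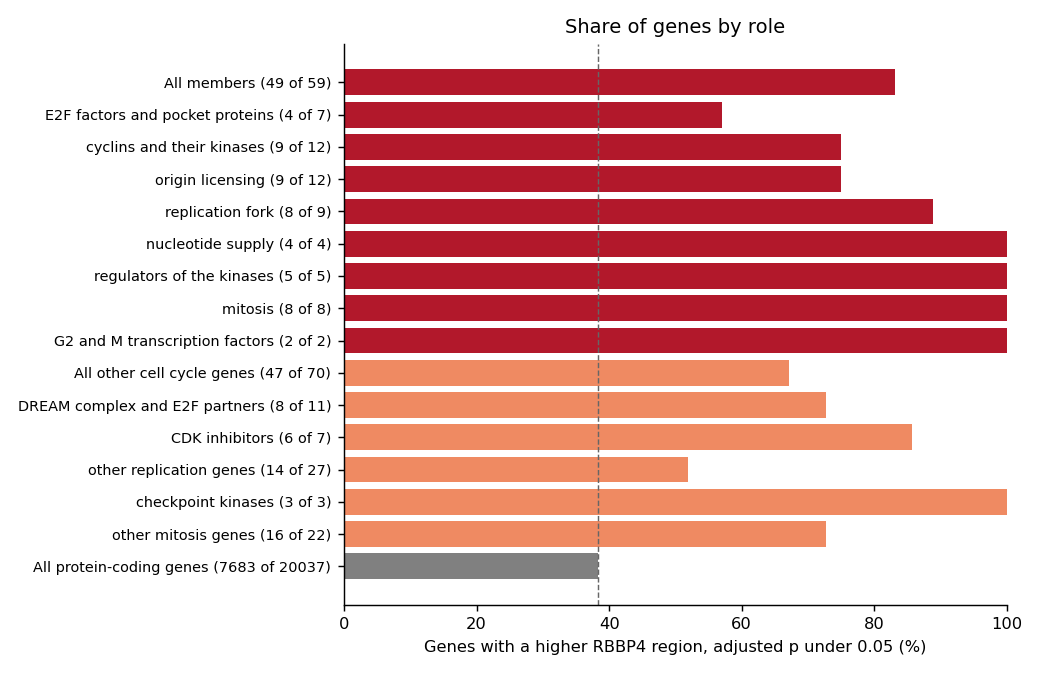
Share of genes (%) with a higher RBBP4 region of adjusted p under 0.05, by role, for the 59 cell cycle genes (red), 70 other genes of the same processes (orange) and all 20037 protein-coding genes (grey, 38.3%, dashed line). The red bars run from 57.1% for E2F factors and pocket proteins to 100% for 4 roles.

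Another 70 genes of the same processes, also chosen with earlier results known, were counted for comparison. A higher called RBBP4 region lay at 47 of them (67.1%) and a lower one at 6, where 5.60% of protein-coding genes had a lower one. CDK inhibitors had one at 6 of 7, DREAM subunits and E2F partners at 8 of 11, checkpoint kinases at 3 of 3, further mitotic genes at 16 of 22 and further replication genes at 14 of 27. The shares were lower for the replication genes than for the other lists, and all lists lay above the 38.3% of protein-coding genes.

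The genes of each list with the most reads were as follows. CDKN2C, an inhibitor of CDK4 and CDK6, had 122 and 35 reads at its start (2.4-fold, 1.64 to 3.61), and CDKN2A, another, had 72 and 11 (4.51-fold, 2.38 to 9.45). TFDP1, the partner of E2F factors, had 62 and 25 (1.71-fold, 1.06 to 2.84) in a region 39650 bp from its start, and LIN9, a MuvB subunit, 26 and 6 (2.99-fold, 1.2 to 8.88). Both checkpoint kinases with the most reads were called at the start: CHEK1 had 52 and 10 (3.59-fold, 1.80 to 7.92) and ATR, the kinase of stalled forks, 39 and 8 (3.36-fold, 1.55 to 8.33). CKS1B, a CDK-binding protein, had 116 and 12 (6.67-fold, 3.67 to 13.3) at a start shared with SHC1, and KIF20A, a kinesin of cytokinesis, 79 and 16 (3.41-fold, 1.97 to 6.25) at one shared with BRD8.

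Replication genes of this second list were led by PRIM2 and RPA3. PRIM2, a primase subunit, had 116 and 11 reads (7.27-fold, 3.92 to 15.0), but 155042 bp from its start, and RPA3, a subunit of the single-strand binding protein, had 57 and 13 (3.02-fold, 1.64 to 6.02) over the start of UMAD1. The RBBP4 gene itself, named after its values were seen, had 23 and 1 reads 18 bp from its start (15.9-fold, 2.58 to 654), in a region outside its span that covers the start of ZBTB8OS. Lower called regions lay at ORC3, ORC5, CDC7, NDC80, KIF11 and ANAPC1, all inside or near the gene and 2697 to 71543 bp from a start.

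P300 gave no comparable pattern at the 59 genes. A higher listed region lay at 8 of 59 genes (13.6%), where 11.5% of protein-coding genes had one, and a lower listed region at 7 of 59 (11.9%), against 17.7%. These counts use the unadjusted p under 0.05 of the listed regions. No P300 region was called: the authors' deposited table held no adjusted p below 0.260. Of the 15 regions at genes with a known start, 1 lay within 1000 bp of it, and the median distance was 29241 bp.

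**Figure D5:**
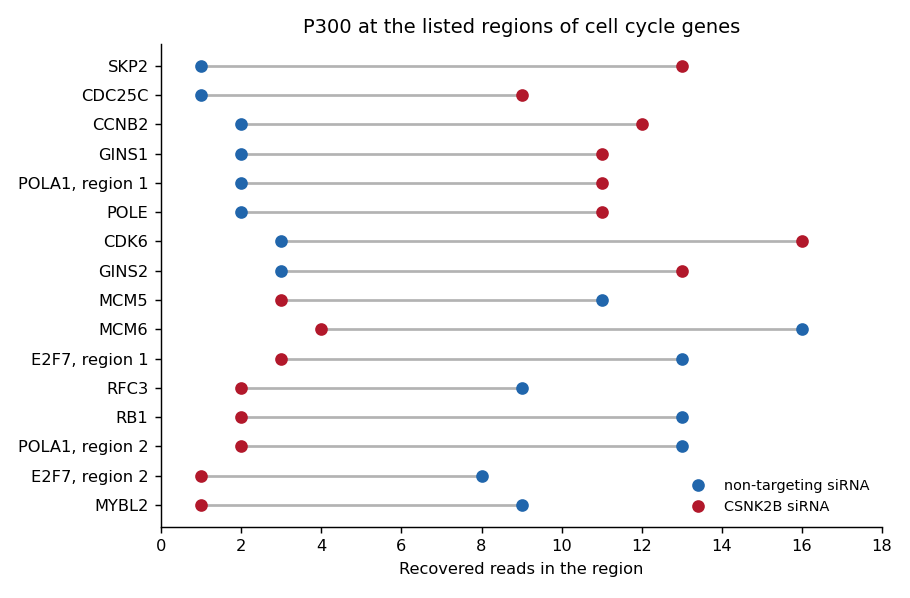
Reads recovered from the P300 table in each of the 16 listed regions of 14 cell cycle genes, in the control library (blue) and the knockdown library (red). The 8 higher regions have 9 to 16 knockdown reads and the 8 lower regions 8 to 16 control reads.

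Higher P300 regions were CCNB2 (12 and 2 reads), CDK6 (16 and 3), GINS1 (11 and 2), GINS2 (13 and 3), POLA1 (11 and 2), POLE (11 and 2), CDC25C (9 and 1) and SKP2 (13 and 1), knockdown first. The fold was largest at SKP2, 15.0 (2.25 to 638), for which the authors' deposited table gave an unadjusted p of 0.00444. The POLE region, 170 bp from the start, had a fold of 6.35 (1.39 to 59). The fork genes among them were GINS1, GINS2, POLA1 and POLE.

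Lower P300 regions were E2F7 (3 and 13, and 1 and 8 reads), RB1 (2 and 13), MCM5 (3 and 11), MCM6 (4 and 16), RFC3 (2 and 9), POLA1 (2 and 13) and MYBL2 (1 and 9), again knockdown first. MYBL2 was 7.79-fold lower (1.08 to 342) and RB1 5.63-fold lower (1.27 to 51.4). The intervals of 13 of the 16 regions excluded 1, and those of 1 E2F7 region, MCM5 and RFC3 did not. All 16 had been listed by a p under 0.05 on the same libraries, which bears on that count. POLA1 held a region of each direction, 23234 bp and 98299 bp from its start.

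All 14 genes with a P300 region also had a listed RBBP4 region, as did 53 of all 59 genes (89.8%) and 51.6% of protein-coding genes. At POLE and CDK6 the regions themselves overlapped, by 21 and 195 bp, and were higher after knockdown for both antibodies, though the CDK6 RBBP4 region was not called. Overall 317 of 20496 P300 regions (1.55%) overlapped an RBBP4 region. The median P300 log2 ratio over the 14 genes was 0.29, beside -1.61 over all 4723 genes with a region. That median was an even split of 7 genes above 0 and 7 below. It was -0.11 when the authors' deposited log2 fold change, which is scaled otherwise, was used in place of the RPKM ratio.

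Among the 70 other genes of the same processes, 7 had a higher and 13 a lower listed P300 region, where 11.5% and 17.7% of protein-coding genes had one. Those with an unadjusted p under 0.01 in the authors' deposited table were the primase subunits PRIM1 (0 knockdown and 10 control reads) and PRIM2 (9 and 0), the polymerase delta subunit POLD3 (1 and 11), the single-strand binding subunit RPA1 (1 and 11), the fork protein WDHD1 (1 and 12) and the centromeric histone gene CENPA (10 and 0). With the floor in place of 0, PRIM1 was 2.89-fold lower, PRIM2 3.46-fold higher and CENPA 3.85-fold higher. Their exact lower limits were 1.94, 2.28 and 2.59. As at the 59 genes, both directions occurred and no region was called.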

How the data were processed

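The authors deposited 1 table of differential regions per antibody on GRCh38, with RPKM for the knockdown and the control immunoprecipitated library. The same tables hold the deposited log2 fold change, p-value and adjusted p-value, per the file headers. The submitters' processing notes name DiffBind 3.4.11, MACS2 2.2.7.1 and ChIPseeker 1.28.3, with Bowtie2 2.4.5, Trim Galore 0.6.7 and FastQC, and what each did is not given in the sources used here. Columns were matched to arms by their names, and no input column was used.

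Reads recovered as RPKM times region width were whole, to within 0.01, in 98.3% of RBBP4 and 99.4% of P300 regions; for another 596 and 131 a width was solved. Folds are ratios of recovered reads scaled to the totals behind RPKM, with exact binomial 95% intervals and a floor of 3 reads in place of 0. PCR copies are not marked, so intervals and floors cover counting error only. Log2 ratios add a pseudocount of 1 RPKM, which understates low regions. The authors' log2 fold change, scaled otherwise, stood 0.58 higher for RBBP4 (1.50 in fold) and differed by -0.43 for P300.

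The authors' adjusted p-values imply at least 95329 tested RBBP4 regions. Read recovery was tested on simulated data. Gene spans and starts came from RefSeq GRCh38.p14, with the 5′ end of the span counted as a start; shares use all protein-coding genes. Per role up to 6 genes with the most reads in a called region are given in full, with every lower region and every P300 region; of other genes, the 2 per list with the most reads. The members and lists were chosen with earlier results of these data known. Alternatives covered the flank, overlap, thresholds, dispersion, pseudocount, read minimum and the authors' log2 fold change in place of the RPKM ratio. Python 3.11.15, NumPy 2.4.6, SciPy 1.17.1 and pandas 2.3.3 were used.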

Additional observations from a re-analysis of the deposited data

How the results depend on the processing

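The count of genes with a higher called RBBP4 region, 49, ranged from 39 to 52 over the alternatives of flank, overlap, threshold, dispersion and read minimum. The share of all protein-coding genes moved as well. It was 26.4% at an adjusted p under 0.01, where the count was 39, and 46.5% with every listed region, where it was 52. The count was 36 when the region had to lie within 1000 bp of a start, which 10 of the 59 genes lack, beside 22.6% of all protein-coding genes. With a dispersion of 0.04 in place of 0.01, 40 of the 49 kept the call and E2F7, CCND3, CCNE1, CCNA2, ORC6, GINS1, GINS2, RFC4 and MYBL2 lost it, while the share of all genes went to 29.7%; calls over all regions, recomputed from recovered reads, went from 20242 to 12586, where the authors' deposited table has 20131. The RBBP4 median log2 ratio, 1.94, was 1.63 with a pseudocount of 5 and 2.60 with the authors' deposited log2 fold change, which is scaled otherwise. Genes with a higher P300 region, 8, numbered 1 at p under 0.01 and 0 at an adjusted p under 0.05. Genes with a lower one, 7, numbered 11 with a flank of 10000 bp, 3 at p under 0.01 and 0 at an adjusted p under 0.05. No share over all genes was computed for these P300 alternatives. The P300 median, 0.29, was -0.11 with the authors' deposited log2 fold change. The stricter thresholds select fewer regions, and otherwise the cause was not tested. All 268 recomputed values of single genes kept their direction, but this is no check of the directions. A pseudocount added to both arms cannot change a direction. The remaining setting was the authors' log2 fold change, whose sign defined a region as higher or lower. No paired analysis was possible because each antibody and arm had 1 library. The lower RBBP4 regions held at most 19 reads over both libraries and the P300 regions at most 20, so small differences were not detectable there.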
